A study of Mus musculus with 22 samples.

Results

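The lysyl oxidase family comprises 5 genes in the mouse, Lox, Loxl1, Loxl2, Loxl3 and Loxl4, and all were found by symbol and Ensembl identifier among the 41388 genes counted in 22 RNAseq libraries of tumor stroma. RNA had been sequenced from stromal cells of tumors grown in C57BL/6 mice, given in the labels as postnatal day 56 and sorted by TdTomato, which marks cells targeted by the Osx promoter (TdTOSX), and by the leukocyte surface protein CD45. The 4 sorted populations were TdTOSX single positive (TdTOSX+;CD45-), double negative (TdTOSX-;CD45-), double positive (TdTOSX+;CD45+) and CD45 single positive (TdTOSX-;CD45+). Each came from mice of either genotype, with 2 libraries per genotype of TdTOSX single positive cells and 3 per genotype of each other population. Per the labels, 4 wild type mice (Osx-cre;Ai9) and 6 mice labelled Cdh2-cKO;Ai9 had been inoculated, so that both genotypes carried Osx-cre and the Ai9 reporter, and Cdh2-cKO stands for a conditional deletion of Cdh2, the gene of N-cadherin. Cre was driven by the Osx (Sp7) promoter, which limits any deletion to cells that have used this promoter. The labels name the tumors as orthotopic MMTV-BO1, whereas the design text of the series names subcutaneous tumors.

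Lysyl oxidases are copper-dependent enzymes secreted to the extracellular matrix, where they convert lysine side chains of collagen and elastin into aldehydes that then form covalent cross-links. Lox and Loxl1 are made as proenzymes whose propeptide is removed by Bmp1 and related proteinases, while Loxl2, Loxl3 and Loxl4 carry scavenger receptor cysteine-rich domains in front of the catalytic domain. In tumors the family is best known for the stiffening of collagen matrix, and fibroblasts are its usual source. The genes lie on 5 different chromosomes (GRCm38). Lox is at chr18:52516069-52529867 on the minus strand, Loxl1 at chr9:58287723-58313212 on the minus strand, Loxl2 at chr14:69609068-69695834 on the plus strand, Loxl3 at chr6:83034173-83052562 on the plus strand and Loxl4 at chr19:42593982-42612813 on the minus strand. Exons of Loxl3 share 535 bases, 12.8% of its exonic length, with Htra2 on the opposite strand, and Loxl2 shares 301 bases (5.57%) with the antisense gene Gm27177. Without strand information, reads in these stretches cannot be told apart.

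Between 16594228 and 26784003 reads were counted on genes per library, so that 3 counts, the smallest signal taken as present, equal 0.103 to 0.201 normalised CPM, the counts scaled to library size. Among CD45- cells Cdh2 was not lower in the libraries labelled Cdh2-cKO. It ranged from 4.52 to 9.13 normalised CPM in the 5 wild type libraries and from 12.5 to 18.4 in the 5 libraries labelled Cdh2-cKO. Only the TdTOSX+ cells bear on the label, since any deletion is limited to cells that have used the Osx promoter. A count over the whole gene also cannot show whether single exons were lost. The log2 differences, Cdh2-cKO minus wild type, were 1.08 ± 0.843 (adjusted p = 0.668) in TdTOSX single positive and 1.32 ± 0.694 (adjusted p = 0.623) in double negative cells (edgeR). In double positive cells Cdh2 was near the floor, at a mean of 0.495 normalised CPM in wild type and 0.343 in libraries labelled Cdh2-cKO (-0.55 ± 0.846), and in CD45 single positive cells at 0.798 and 1.30 (0.69 ± 0.757), and neither difference was called. Ptprc, which encodes CD45, was at 2.45 to 337 normalised CPM in the CD45- libraries and at 472 to 1821 in the CD45+ libraries. The highest CD45- value came from wild type double negative replicate 3, whose 10 leukocyte markers summed to 8552 CPM, and the highest CD45+ value from wild type CD45 single positive replicate 2, whose 9 lymphocyte markers summed to 5863 CPM against 38.5 to 544 in the other CD45+ libraries. Results are given below with and without these libraries where they differ in call.

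All 5 members were far higher in the CD45- than in the CD45+ cells. Lox, which gave the family its name and acts on fibrillar collagen and elastin, was at 631 and 238 normalised CPM in the wild type TdTOSX single positive libraries, at 111 and 189 in those labelled Cdh2-cKO, at 499, 81.4 and 68.7 in wild type double negative cells and at 128, 106 and 134 in double negative cells labelled Cdh2-cKO. In the 12 CD45+ libraries it ranged from 0.297 to 4.01. Its lowest CD45- library was thus 17.1-fold above its highest CD45+ library, both of which are the libraries named above as standing apart. The difference of CD45- minus CD45+ cells on the log2 scale was 7.33 ± 0.455 (SE), with an adjusted p of 5.39e-10 (edgeR quasi-likelihood test, Benjamini-Hochberg adjustment over 15018 genes).

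Loxl1, which is tied to elastic fibers through fibulin-5, was at 21.6 to 290 normalised CPM in the 10 CD45- libraries, with a median of 71.1, and at 0.0539 to 0.989 in the CD45+ libraries. Loxl2, known for cross-linking type IV collagen as well as for roles in tumor invasion, was at 11.3 to 128 with a median of 36.7, against 0.0528 to 0.721. Both genes therefore sat around the level of a few counts in CD45+ cells, between 1 and 18 counts per library for Loxl1 and between 1 and 12 for Loxl2. Their log2 differences were 7.67 ± 0.393 (adjusted p = 7.71e-11) and 7.17 ± 0.426 (adjusted p = 3.45e-10), in the same edgeR test.

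Loxl3 and Loxl4 showed the smaller differences. Loxl3, a member needed for the development of palate and spine in the mouse, was at 86.2 to 654 normalised CPM with a median of 241 in CD45- cells, and at 2.75 to 22.9 in CD45+ cells. Unlike the other members it was counted well above the floor in every CD45+ library, with 47 to 343 counts. Loxl4 was the lowest member in CD45- cells, at 1.87 to 8.68 normalised CPM, and in CD45+ cells it was at 0 in 3 of 12 libraries and at 3 counts or fewer in 10 of 12. The log2 differences were 4.78 ± 0.39 for Loxl3 (adjusted p = 1.51e-08) and 5.28 ± 0.516 for Loxl4 (adjusted p = 1.43e-07). The lowest CD45- library exceeded the highest CD45+ library 3.76-fold for Loxl3 and 2.72-fold for Loxl4. For Loxl4 the size of the fold change rests on few counts, and without wild type double positive replicate 3, which held 6 of its counts, the other libraries of that group are at 0 and the fitted value is 6.33, which is no bound. Fewer cells of a type and less RNA per cell cannot be told apart in such bulk samples.

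**Figure D1:**
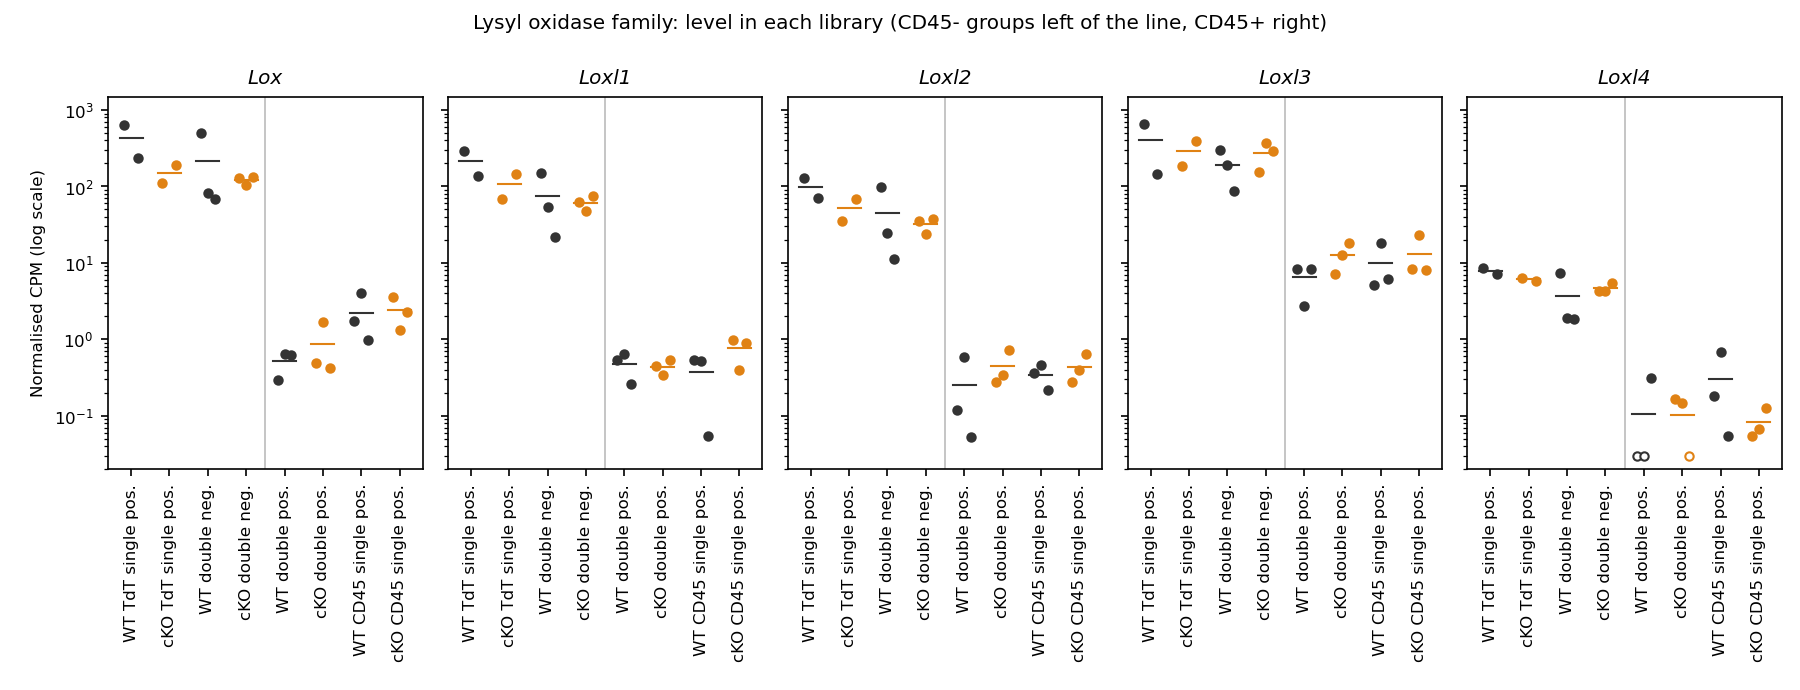
Normalised CPM (log scale) of each family member in each of the 22 libraries, by population and genotype, with wild type (WT) in black and libraries labelled Cdh2-cKO in orange. Dots are libraries, horizontal lines are group means, and open dots at the foot of the axis are libraries at 0. The gap between the lowest of the 10 CD45- libraries and the highest of the 12 CD45+ libraries is widest for Loxl1 (21.9-fold) and narrowest for Loxl4 (2.72-fold).

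Thus 5 of 5 members were called as higher in CD45- cells, where 31.1% of all genes tested were called in that direction. Loxl1, Loxl2 and Loxl4 reached at most 0.989, 0.721 and 0.687 normalised CPM in CD45+ libraries. They passed the filter, more than 1 CPM in at least 2 libraries, through CD45- libraries alone, so that their direction was not open. The count of members called was also 5 of 5 in the wild type libraries, beside a background of 25.7%, and 5 of 5 in the libraries labelled Cdh2-cKO, beside 27.1%. It remained 5 of 5 in every alternative run, with both libraries that stand apart left out as well. In the wild type libraries the log2 differences were 8.13 for Lox, 8.23 for Loxl1, 7.80 for Loxl2, 5.12 for Loxl3 and 4.83 for Loxl4. In those labelled Cdh2-cKO they were 6.52, 7.10, 6.53, 4.45 and 5.73 in the same order. The difference between the genotypes in this effect was tested for each member and 0 of 5 were called, beside 0% of all genes. It came to -1.61 ± 0.776 for Lox, with an unadjusted p of 0.0536 and an adjusted p of 0.646 (edgeR). Across all genes edgeR called 0 for this term, with 1157 genes at an unadjusted p under 0.05, voomWithQualityWeights called 0 and DESeq2 called 30.

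The level left in CD45+ cells was compared with that of fibroblast genes, as a description. The mean over the CD45+ groups was 0.654% of the mean over the CD45- groups for Lox, 0.449% for Loxl1 and 0.649% for Loxl2. For the 9 fibroblast markers this value ran from 0.410% to 4.91% with a median of 0.559%, among them 0.477% for Col1a1, 0.494% for Col3a1 and 0.559% for Dcn. Loxl3 at 3.65% and Loxl4 at 2.68% lay above 7 of these 9 markers and below Thy1 (3.80%) and Fap (4.91%). The summed level of the fibroblast markers was 64.0 to 225 CPM in the CD45+ groups and 4341 to 59960.4 CPM in the CD45- groups, and none of the 9 was at 0 throughout a group. Whether the reads of Lox, Loxl1 and Loxl2 in CD45+ cells come from fibroblasts among them was not tested.

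**Figure D2:**
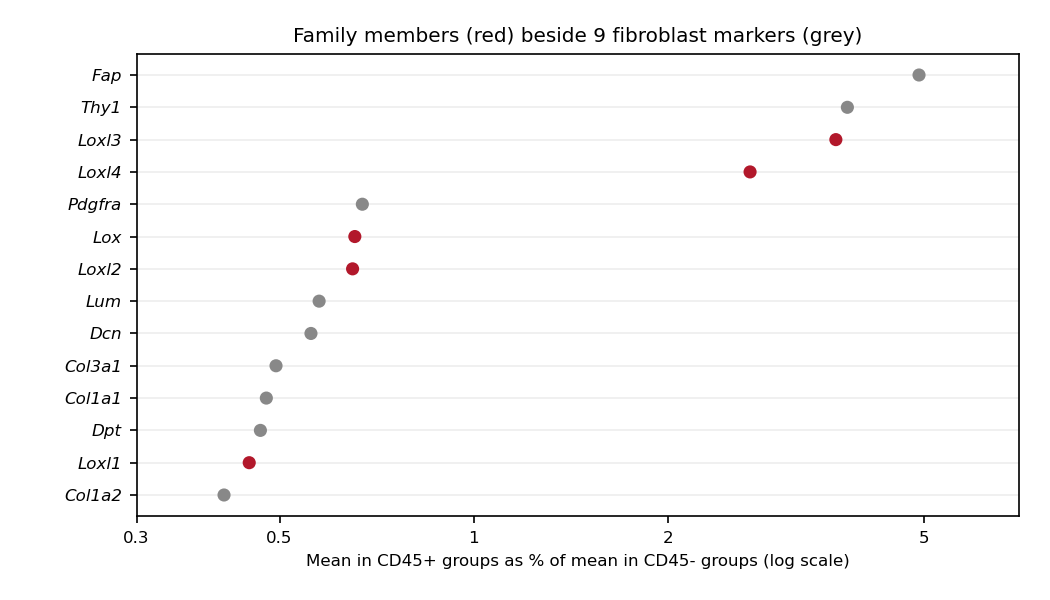
Mean normalised CPM over the CD45+ groups as a percentage of the mean over the CD45- groups (log scale), for the 5 family members in red and the 9 fibroblast markers in grey. Loxl1 (0.449%) lies among the 3 collagens, Loxl2 (0.649%) and Lox (0.654%) lie just above them, next to Pdgfra (0.672%), and Loxl3 (3.65%) and Loxl4 (2.68%) lie higher.

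Compared per length, as normalised RPKM, Loxl3 was the leading member. It came first in 8 of the 10 CD45- libraries, and Lox came first in the other two, wild type TdTOSX single positive replicate 2 and wild type double negative replicate 1. The order below was fixed, with Loxl4 last and Loxl2 next to last in all 10. The median level in CD45- cells was 57.5 RPKM for Loxl3, 27.2 for Lox, 21.3 for Loxl1, 6.78 for Loxl2 and 1.34 for Loxl4. The range of Loxl3 (20.5 to 156 RPKM) overlapped those of Lox (14.3 to 131) and Loxl1 (6.48 to 86.9), and the range of Loxl4 (0.444 to 2.06) lay below that of Loxl2 (2.09 to 23.7).

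As a share of the summed RPKM of the family, Loxl3 made up 24.8% to 67.9% in CD45- cells with a median of 46.7%, Lox 26.7%, Loxl1 20.1%, Loxl2 6.29% and Loxl4 0.894% in the median. In CD45+ cells the make-up was different, with Loxl3 first in all 12 libraries and at 60.1% to 91.8% of the sum. There the levels were low, with a median of 1.99 RPKM for Loxl3 and of 0.240 for Lox.

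**Figure D3:**
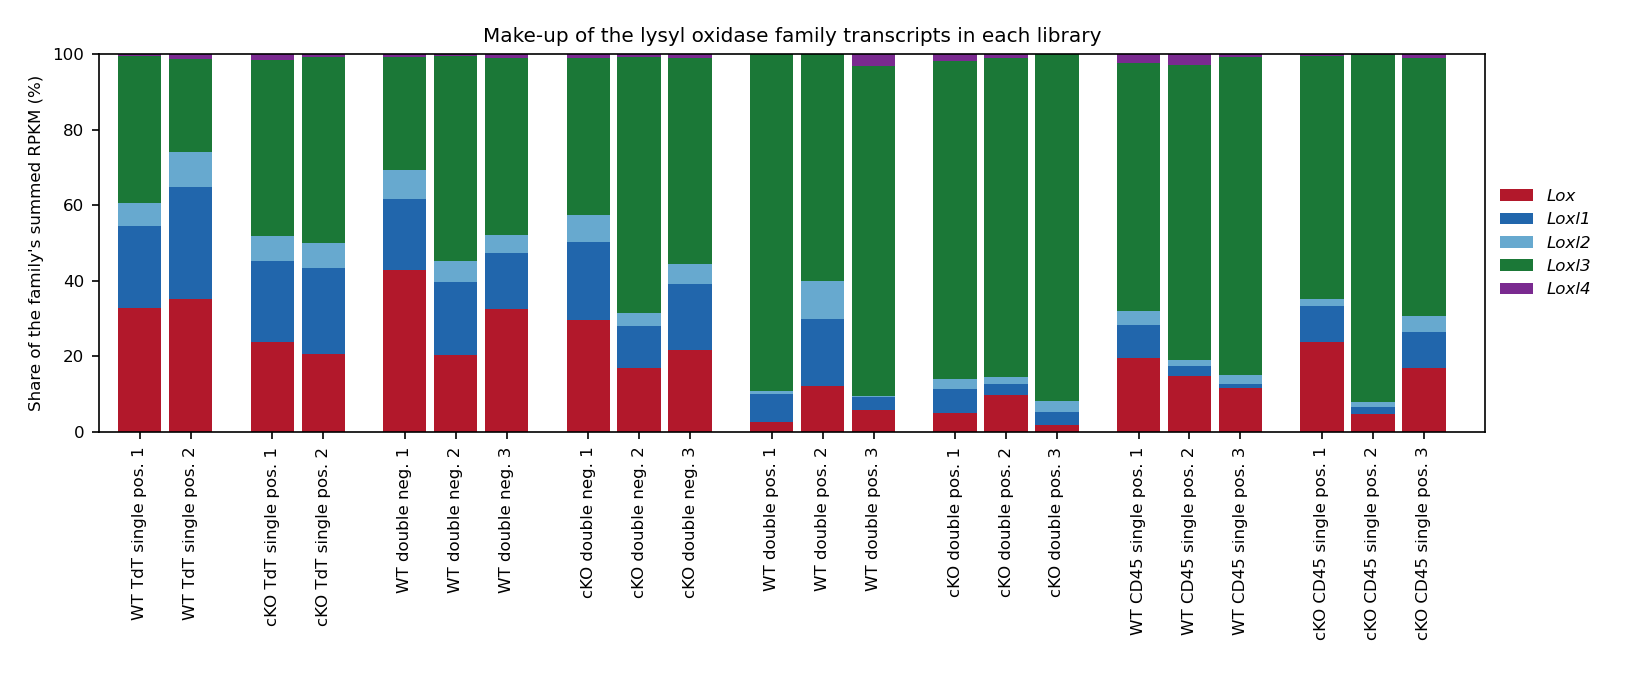
Share of each member in the summed normalised RPKM of the family (%), one bar per library, grouped by population and genotype. Loxl3 (green) takes 24.8% to 67.9% of the sum in the CD45- libraries on the left and 60.1% to 91.8% in the CD45+ libraries on the right, where all members are low.

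Within the CD45- cells all 5 members had their highest level in wild type TdTOSX single positive replicate 1 and their lowest in wild type double negative replicate 3. The TdTOSX single positive cells were compared with the double negative cells to see whether the Osx-targeted stroma differs from the rest. Loxl1 was at 290 and 139 normalised CPM in wild type TdTOSX single positive cells and at 152, 54.4 and 21.6 in wild type double negative cells. In libraries labelled Cdh2-cKO it was at 68.1 and 144, against 61.9, 47.2 and 74.2. The populations overlapped in both genotypes. The log2 difference over both genotypes was 1.15 ± 0.432, with an unadjusted p of 0.0164 and an adjusted p of 0.160 (edgeR), and this was the lowest p of the family.

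The other members lay in the same direction without passing the test. Their log2 differences were 0.92 ± 0.472 for Loxl2 (adjusted p = 0.299), 0.73 ± 0.605 for Loxl4 (adjusted p = 0.527), 0.65 ± 0.521 for Lox (adjusted p = 0.516) and 0.57 ± 0.511 for Loxl3 (adjusted p = 0.562), each by edgeR. In all, 0 of 5 members were called, beside 1.89% of all genes. The counts of 0 of 5 were the same within the wild type libraries, where 0.16% of genes were called and the log2 differences ran from 1.01 for Lox to 1.50 for Loxl1, and within those labelled Cdh2-cKO, where 0.0333% were called and they ran from 0.09 for Loxl3 to 0.80 for Loxl1. Of the 5 members, 1, Loxl1, had an unadjusted p under 0.05 over both genotypes (edgeR). So did 2847 of all 15018 genes tested, a similar share. DESeq2 called 0 members and voomWithQualityWeights called 2, Loxl1 at 1.25 (adjusted p = 0.0307) and Loxl2 at 1.18 (adjusted p = 0.0410). With the replicate number as a block 0 members were called, Loxl1 was at 1.06 (adjusted p = 0.0836, edgeR), and the count over all genes was 185 in place of 284 over both genotypes and 4 in place of 24 in the wild type libraries.

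The edgeR calls changed with 1 library. Wild type double negative replicate 1 had the highest levels of Lox (499), Loxl1 (152), Loxl2 (97.6) and Loxl4 (7.36 normalised CPM) among the 6 double negative libraries, and also the highest fibroblast marker sum of these, 32568 CPM. Without it Loxl1 (1.65, adjusted p = 0.0305) and Loxl2 (1.57, adjusted p = 0.0359) were called over both genotypes, and Lox (2.54, adjusted p = 0.0420), Loxl1 (2.50, adjusted p = 0.0326) and Loxl2 (2.47, adjusted p = 0.0363) within the wild type libraries. Leaving out the highest double negative library of these members raises their differences. The count over all genes moved too, between 30 and 878 over both genotypes as each library was left out. Whether the members gained more than other genes was not tested. Leaving out wild type TdTOSX single positive replicate 1 turned the difference of Loxl3 to -0.15 over both genotypes. The difference of this effect between the genotypes was called for 0 of 5 members, beside 0.00666% of all genes, and was -0.71 ± 1.06 for Lox (adjusted p = 0.908).

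The fibrillar collagens that the enzymes cross-link lay in the same direction. Of the 7 collagen genes tested 0 were called between TdTOSX single positive and double negative cells, and their median log2 difference was 1.23, against 0.07 over all genes. Col1a1 was at 1.43 ± 0.433 (adjusted p = 0.0907) and Col3a1 at 1.16 ± 0.467 (adjusted p = 0.186). Of the 13 elastic fiber genes 0 were called, with a median of 0.69 and Eln, the gene of elastin, at 2.05 ± 0.534 (adjusted p = 0.0593). The 9 fibroblast markers had a median of 1.12 and the 10 leukocyte markers one of 0.91, with 0 called in either list. The sums of the leukocyte markers were 233 to 2330 CPM in wild type TdTOSX single positive and 220 to 8552 in wild type double negative libraries. In libraries labelled Cdh2-cKO they were 2599 to 5719 against 402 to 514. Ptprc lay in opposite directions in the genotypes. It was at -1.60 ± 1.21 in wild type (adjusted p = 0.498) and at 3.41 ± 1.18 in libraries labelled Cdh2-cKO (adjusted p = 0.179, edgeR). Epithelial markers summed to 41.5 to 575 CPM in wild type TdTOSX single positive libraries and 934 to 937 in those labelled Cdh2-cKO. In double negative cells these sums were 511 to 1411 CPM in wild type and 1081 to 2000 in libraries labelled Cdh2-cKO. The part of leukocyte and epithelial transcripts in the differences was not tested. The 11 hypoxia response genes, a list included because Lox is a known target of this response, had a median of -0.45, with 1 gene called as lower, Pgk1, of glycolysis, and with Car9 at -1.97 ± 0.499 (adjusted p = 0.0512).

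Relative to Col1a1, the members were not higher in the TdTOSX single positive cells. Per 1000 RPKM of Col1a1, Loxl1 was at 24.1 to 28.9 in the 4 TdTOSX single positive libraries and at 26.5 to 45.5 in the 6 double negative libraries. The ranges were 6.96 to 8.47 against 8.36 to 16.1 for Loxl2, 26.3 to 38.5 against 33.2 to 76.9 for Lox, 21.8 to 62.7 against 47.6 to 186 for Loxl3 and 0.604 to 1.76 against 1.12 to 2.51 for Loxl4. All of these ranges overlapped, and they were not tested.

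**Figure D4:**
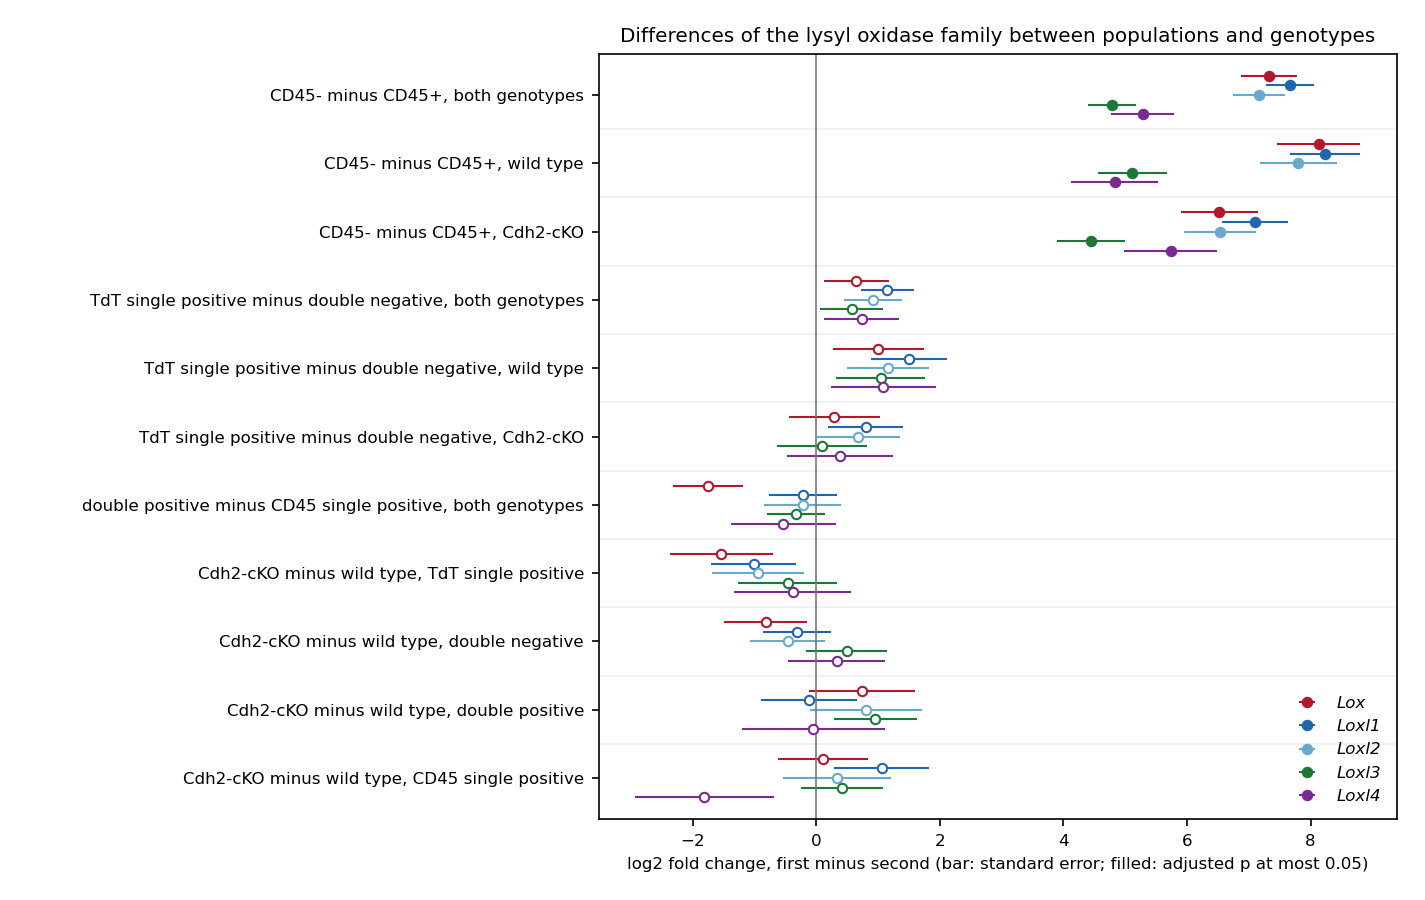
Log2 fold change (first group minus second) of each family member in 11 comparisons of populations and genotypes, with bars for the standard error of the edgeR fit and filled dots for an adjusted p of at most 0.05. Filled dots appear in the 3 comparisons of CD45- with CD45+ cells, at 4.45 to 8.23, and in none of the others.

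Within the CD45+ cells, the double positive cells were compared with the CD45 single positive cells. Lox was at 0.297, 0.643 and 0.633 normalised CPM in wild type double positive cells and at 1.74, 4.01 and 0.970 in wild type CD45 single positive cells. In libraries labelled Cdh2-cKO it was at 0.497, 1.70 and 0.421 against 3.57, 1.34 and 2.31. The log2 difference over both genotypes was -1.76 ± 0.566, with an unadjusted p of 0.00639 and an adjusted p of 0.9999 (edgeR). The values correspond to 5 to 35 counts in double positive and 18 to 70 in CD45 single positive libraries. Fibroblast markers summed to 64.0 to 115 CPM in the double positive and 78.6 to 225 CPM in the CD45 single positive libraries. The sums were 225 and 224 CPM in the libraries with Lox at 4.01 and 3.57. The first of these is the wild type library that stands apart by its lymphocyte markers. Of its sum 52.6 CPM were Thy1, whose median over the CD45+ libraries was 2.25. The part of fibroblast transcripts in this difference was not tested. The log2 differences of the other members ran from -0.54 for Loxl4 to -0.21 for Loxl1. Of the 5 members 0 were called, beside 0.00666% of all genes. Without both libraries that stand apart the difference of Lox was -1.39.

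Between the genotypes, 0 of 5 members were called in any population. The background was 0.00666% in TdTOSX single positive cells and 0% in each other population, with 1441 genes at an unadjusted p under 0.05 in double negative, 515 in double positive and 1474 in CD45 single positive cells by edgeR. DESeq2 called 522, 1 and 26 genes in these populations, and voomWithQualityWeights 0 in each, so that the count over all genes depended on the tool while the count of members stayed at 0. In TdTOSX single positive cells Lox was at 631 and 238 normalised CPM in the wild type libraries and at 111 and 189 in those labelled Cdh2-cKO. The log2 difference, Cdh2-cKO minus wild type, was -1.53 ± 0.835 (adjusted p = 0.539), and it was -1.01 ± 0.685 for Loxl1, -0.94 ± 0.747 for Loxl2, -0.46 ± 0.801 for Loxl3 and -0.38 ± 0.947 for Loxl4. All 5 values lay below 0 and none passed the test, with 2 libraries per genotype. The fibrillar collagens had a median of -1.10 here and the leukocyte markers one of 1.75, with 0 called in either list. Since Cdh2 itself was not lower in these libraries labelled Cdh2-cKO, these directions describe the labels and not a measured loss of Cdh2.

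In double negative cells, which do not carry the TdTOSX mark, the log2 differences were -0.82 ± 0.671 for Lox, -0.31 ± 0.555 for Loxl1, -0.46 ± 0.607 for Loxl2, 0.49 ± 0.654 for Loxl3 and 0.33 ± 0.779 for Loxl4. The lowest adjusted p among them was 0.914 (edgeR). Without wild type double negative replicate 1 the values of Lox, Loxl1 and Loxl2 turned to 0.71, 0.68 and 0.85. The leukocyte markers had a median of -3.39 in this comparison, and Ptprc was at -3.41 ± 1.13 (adjusted p = 0.207). The part of these transcripts in the members' differences was not tested.

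How the members varied among themselves was described over the 10 CD45- libraries, which come from both CD45- sorts and share their processing, with 16594228 to 26784003 counts each. By Pearson r of log2 normalised CPM Loxl1 and Loxl2 were most alike, at 0.99 (Spearman rho 0.98), and by Spearman rho Lox and Loxl2, at 0.99. Although Loxl1 varied 13.4-fold and Loxl2 11.4-fold between these libraries, their ratio in RPKM stayed between 2.51 and 3.66, a 1.46-fold range. Lox had an r of 0.92 with Loxl1 and of 0.94 with Loxl2. Loxl3 had the weakest likeness to the other members, with r from 0.61 to 0.71. Its ratio to Lox in RPKM ran from 0.699 to 3.99, a 5.70-fold range, with 0.699 to 2.68 in the wild type libraries and 1.398 to 3.99 in those labelled Cdh2-cKO.

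**Figure D5:**
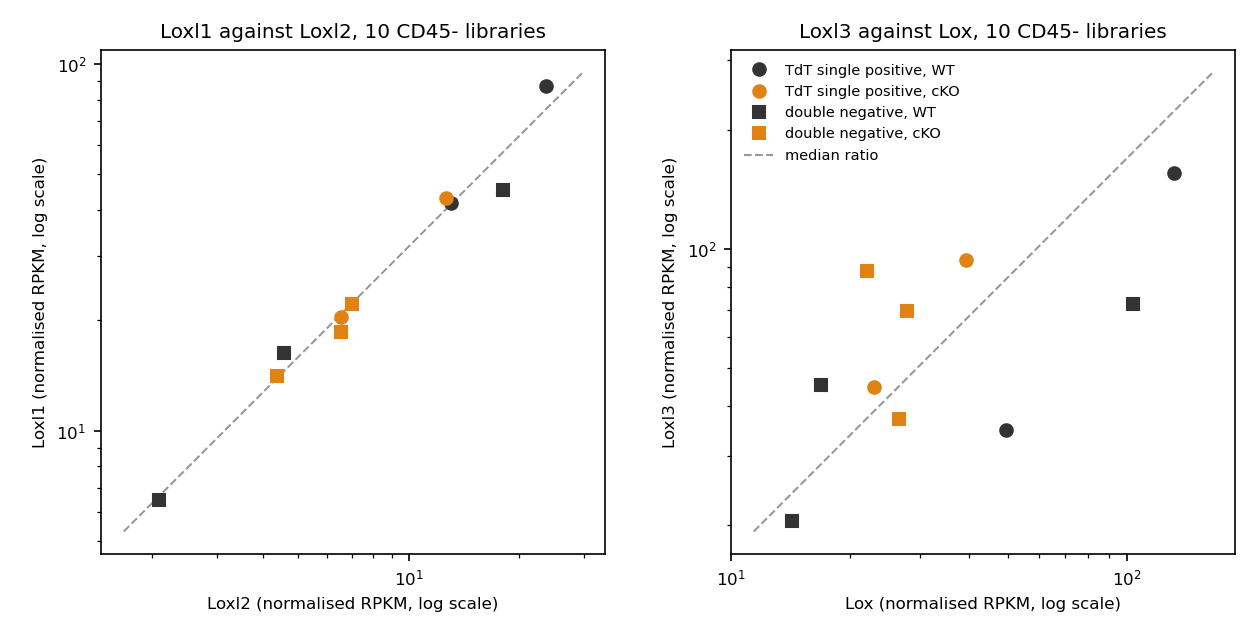
Normalised RPKM (log scales) of Loxl1 against Loxl2 (left) and of Loxl3 against Lox (right) in the 10 CD45- libraries, with circles for TdTOSX single positive and squares for double negative cells, black for wild type (WT) and orange for libraries labelled Cdh2-cKO. The dashed line is the median ratio. The points on the left stay near it (ratio 2.51 to 3.66), and those on the right scatter around it (ratio 0.699 to 3.99).

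Among all genes tested, those most alike in pattern to each member over these 10 libraries were named by the highest Pearson r. For Lox they were Fndc3b, Dio3 and Svep1, each at r of 0.97. For Loxl1 they were Fzd1, a Wnt receptor, Loxl2 and Rflna, each at 0.99, and for Loxl2 they were Loxl1 and Bicc1 at 0.99 and Igdcc4 at 0.98. Col1a1 had an r of 0.98 with Loxl1, 0.96 with Loxl2, 0.89 with Lox and Loxl4 and 0.72 with Loxl3. Ptprc ran the opposite way, with an r of -0.66 with Lox, -0.56 with Loxl1, -0.58 with Loxl2, -0.68 with Loxl3 and -0.47 with Loxl4, and the part of leukocyte transcripts in the members' likeness was not tested. For Loxl3 the leading genes were Pycr1, an enzyme of proline synthesis, at 0.98, and Pcnx4 and Ggcx, the vitamin K-dependent carboxylase, at 0.96. For Loxl4 they were Col23a1 at 0.95, Colec12 at 0.94 and 4833412C05Rik at 0.93.

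Genes that act with the enzymes were compared between CD45- and CD45+ cells by their role. Beside the counts of each list, 31.1% of all genes tested were called as higher in CD45- cells and 32.6% as lower. Of the substrates of the enzymes, 7 of 7 fibrillar collagens tested rose in CD45- cells, from Col11a1 at 5.27 to Col1a2 at 7.72. Their median log2 difference was 7.51, against -0.06 over all genes. Col2a1 and Col11a2, with CD45+ means at 56.6% and 72.5% of the CD45- means, did not pass the filter on low counts. Genes below 1 CPM in every CD45+ library, such as Col11a1 (at most 0.117) and Eln (at most 0.158), passed it through CD45- libraries alone. All 13 elastic fiber genes rose as well, with a median of 7.13, from Emilin1 at 0.83 to Eln at 7.87. Fbln5 (7.01 ± 0.339) and Efemp2 (4.10 ± 0.223), fibulins that bring the enzymes to elastin, were among them. Of the genes for propeptide processing and its docking, 6 of 7 rose. Bmp1, the proteinase that activates Lox, was at 5.73 ± 0.321 (adjusted p = 1.79e-10), and Postn, a matricellular protein that supports this cleavage, was at 7.46 ± 0.388. Fn1, the gene of fibronectin, to which the proenzyme binds, was at -0.24 ± 0.206 (adjusted p = 0.332) and did not pass the test.

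Collagen modification and folding genes rose in 12 of 14 cases, with a median of 2.67. Serpinh1, a collagen chaperone, led at 7.51, and Plod2, which hydroxylates the telopeptide lysines that lysyl oxidases then act on, was at 4.17 ± 0.381. Colgalt1 (0.11) and P4hb (0.28) did not pass the test. The copper supply did not follow the enzymes. Of its 6 genes tested 4 fell in CD45- cells, where 32.6% of all genes were called as lower, and 2 rose. Atp7a, the pump that loads copper onto secreted enzymes, fell by 1.13 on the log2 scale (SE 0.152, adjusted p = 6.26e-06, edgeR), as did the copper chaperone Atox1 and the copper transporters Slc31a1 and Slc31a2, while Cp, ceruloplasmin, rose by 3.86.

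Transglutaminases, another class of matrix cross-linking enzymes, went the other way, with 3 of 3 tested lower in CD45- cells, among them F13a1 at -3.14 ± 0.814 and Tgm2 at -1.91 ± 0.314. Of the other copper amine oxidases, Aoc3 was higher at 8.06 ± 0.622 and Aoc2 did not pass the test at 0.33. Of the EMT factors 5 of 6 rose, with Snai1, whose protein is known to interact with Loxl2 and Loxl3, at 3.91 ± 0.321, and Zeb2 fell at -0.93. Of the TGF-beta ligands and receptors, known inducers of Lox, 4 of 6 rose and 2 fell, from Tgfb2 at 7.12 to Tgfbr1 at -1.18. The hypoxia response list was split, with 4 of 11 higher, 4 lower and a median of -0.05, near the shares over all genes. Beside these lists, pericyte markers rose in 8 of 9 cases (median 6.68), endothelial markers in 9 of 9 (5.61), epithelial markers in 4 of 8 with 2 lower (3.15) and skeletal muscle markers in 5 of 7 (2.14). Leukocyte markers fell in 10 of 10 (-3.43), macrophage markers in 9 of 9 (-3.25) and lymphocyte markers in 7 of 8 cases (-4.03). Fibroblast markers rose in 9 of 9 cases with a median of 7.46.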

How the data were processed

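RNAseq of 22 libraries of sorted mouse stromal cells was analysed from the deposited counts. Per the labels and the methods, the authors made cDNA with the SMARTer kit, which does not mark the strand, aligned single-end reads to GRCm38 with STAR 2.0.4b and used featureCounts (Subread) for gene counts, which kept reads with 1 alignment and 1 gene. The deposited counts are whole numbers per gene without normalization. The deposited CPM and RPKM values, computed by the authors, deviated from the counts by at most 5.1e-14 in relative terms and were not used further. Groups were taken from the sample labels, and nothing says that libraries of different populations come from different mice.

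Tested were 15018 genes, all 5 members among them, that exceeded 1 CPM in 2 libraries or more and were not among the 355 annotated as rRNA. TMM factors and the quasi-likelihood test of edgeR 4.0.16 (R 4.3.3) were applied to all libraries with 1 mean per population and genotype and 13 contrasts, with Benjamini-Hochberg adjustment over all genes tested and a call at an adjusted p of at most 0.05. The standard error was derived from the same test. Normalised CPM are counts over the TMM-scaled library size, and normalised RPKM divide these by the gene length. Log2 values for correlations had a prior count of 2. Symbols were found for 40340 identifiers in GENCODE M21, and positions and gene lengths are those given with the deposited counts. The script was tested on simulated data. Alternatives were limma 3.58.1 (voomWithQualityWeights, the test named in the study's methods), DESeq2 1.42.0, RLE factors, other filters, a log2 fold change of at least 2, a replicate block, 1 genotype only and leaving out libraries.

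The members and all lists were chosen with earlier results of these data known. Named were the members, genes with a known direct role in the enzymes, the highest and lowest gene of each list, and for each member the 3 genes with the highest Pearson r; any other gene was named after its values were seen. The lists were fibrillar collagens, elastic fiber, propeptide processing, collagen modification and folding, copper supply, other copper amine oxidases, transglutaminases, EMT factors, TGF-beta inputs, hypoxia response and markers of 8 cell types. Replicate numbers were checked for pairing: over the 4 pairs of TdTOSX single positive and double negative libraries with the same number and genotype, deviations from the group means correlated at 0.11 to 0.59, and 6 of the 26 pairs of other populations exceeded 0.1. The labels do not state such a pairing, and in groups of 2 libraries the pairs are not independent. P-values measure the spread between these libraries. Floors of 3 counts cover counting error only.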

Additional observations from a re-analysis of the deposited data

How the results depend on the processing

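Of 1647 values recomputed under 31 alternatives, 1622 kept their direction and their side of the threshold (counts of members, their size within 1.5 times), and the differences of CD45- from CD45+ cells were among these under each alternative run. The count of members called between TdTOSX single positive and double negative cells changed from 0 to 2 with voomWithQualityWeights over both genotypes, and leaving out each library in turn it ranged from 0 to 2 over both genotypes and from 0 to 3 in the wild type libraries; the cause was not tested. Directions turned only among values that passed no test. With voomWithQualityWeights Loxl3 was at -0.0054 between these populations in the libraries labelled Cdh2-cKO, and Lox, Loxl1 and Loxl2 were at 0.18, 0.034 and 0.13 between the genotypes in double negative cells. With more than 5 CPM required in at least 2 libraries Loxl3 was at -0.0016 in the first of these comparisons. Leaving out each library in turn, the difference of Loxl3 between TdTOSX single positive and double negative cells ranged from -0.15 to 0.92 over both genotypes, from -0.40 to 1.76 in the wild type libraries and from -0.54 to 0.53 in those labelled Cdh2-cKO, and that of Lox in the latter from -0.15 to 0.63. Between the genotypes, Loxl3 in TdTOSX single positive cells ranged from -1.17 to 0.99, and in double negative cells Lox ranged from -1.23 to 0.71, Loxl1 from -0.73 to 0.68 and Loxl2 from -0.90 to 0.85. The difference of the TdTOSX effect between genotypes ranged from -2.25 to 0.16 for Lox.

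Same-numbered libraries deviated together in 4 of 4 pairs of the CD45- populations and in 6 of the 26 pairs that include a CD45+ population. With the number as a replicate block the count of members called was 5 in each comparison of CD45- with CD45+ cells and 0 in the others, and the count over all genes between TdTOSX single positive and double negative cells changed from 284 to 185 over both genotypes and from 24 to 4 in the wild type libraries.

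Over all genes, the call counts of small comparisons depended on the tool. Between TdTOSX single positive and double negative cells 284 genes were called by edgeR, 718 by voomWithQualityWeights and 982 by DESeq2, 92 without a filter on low counts, 1509 with both libraries that stand apart left out, and 30 to 878 when each library was left out. Between the genotypes in TdTOSX single positive cells the counts were 1, 0 and 134 by the same tools. In the comparison of CD45- with CD45+ cells in the wild type libraries, the log2 difference of Loxl4 moved from 4.83 to 6.92 without double positive replicate 3 and to 5.51 without CD45 single positive replicate 2, that of Loxl2 to 8.55 without double positive replicate 2 and to 7.15 without double negative replicate 1, that of Lox to 7.37 without the latter, and that of Loxl3 to 4.40 without TdTOSX single positive replicate 1, all still called. Loxl4, with 3 counts or fewer in 10 of 12 CD45+ libraries, is the member whose fold change the depth limits.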

Other observations

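Next to Loxl3 on chromosome 6 lies Dok1, which encodes an adaptor protein known from blood cells and which was chosen after its values were seen. It runs in the opposite direction, at chr6:83030934-83033471 (GRCm38), and the annotated starts of both genes are 702 bases apart. Dok1 was at 83.0 to 237 normalised CPM in the 10 CD45- libraries and at 41.9 to 72.0 in the 12 CD45+ libraries, which did not overlap. Its log2 difference, CD45- minus CD45+, was 1.51 ± 0.146 (adjusted p = 1.28e-07, edgeR), against 4.78 for Loxl3. Over the 10 CD45- libraries its log2 level had a Pearson r of 0.82 and a Spearman rho of 0.70 with Loxl3. The genes on the other side of Loxl3 had an r of 0.16 (Htra2, whose exons overlap those of Loxl3) and 0.00 (Aup1), and their log2 differences were 0.21 ± 0.106 (adjusted p = 0.0977) and -0.36 ± 0.102 (adjusted p = 0.00472). These are correlations over libraries of 1 experiment, given as a description.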
